A study of Mus musculus with 10 samples.

Results

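DNA methylation of CpG sites is copied onto new strands by Dnmt1, which Uhrf1 guides to replicated DNA, is laid down at new sites by Dnmt3a and Dnmt3b, and is removed through oxidation of 5-methylcytosine by Tet1, Tet2 and Tet3. In regulatory T cells (Tregs), the CD4+ T cells that restrain immune responses, an unmethylated enhancer of Foxp3 is known to keep this lineage factor expressed, and Tet2 and Tet3 are known to take part in its demethylation. The Tet enzymes use oxygen and 2-oxoglutarate, whereas the methyltransferases use S-adenosylmethionine from the methyl donor cycle. The data here hold no methylation: they show how open the chromatin at these 7 genes was.

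Accessibility was read by ATAC-seq, in which the transposase Tn5 cuts and tags open DNA. Of 97385 peaks in the table, 75 lay in the body of one of the 7 genes or within 10 kb of it on mouse build GRCm38, and all 75 held enough counts to be tested. They comprised 5 peaks of Dnmt1, 4 of Uhrf1, 19 of Dnmt3a, 6 of Dnmt3b, 7 of Tet1, 13 of Tet2 and 21 of Tet3. The farthest peak inside the 10-kb limit lay 9.79 kb upstream of Dnmt3b, with a mean of 3.32 CPM (counts scaled to the same total in every library), and the nearest outside lay 10.3 kb from Tet2, with 1.03 CPM. By place, 50 peaks were intronic, 14 overlapped an exon, 7 lay downstream and 4 upstream.

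The Tregs were sorted as CD4+Foxp3-YFP+TCRb+ cells out of the spleen and the lung of mice aged 10 days. Vps34, the lipid kinase encoded by Pik3c3, was deleted with a Cre linked to YFP and expressed from Foxp3 (Foxp3Cre Pik3c3 fl/fl), and controls carried the same Foxp3Cre with Pik3c3 +/+ or +/fl. There were 2 spleen control, 4 spleen Vps34-deficient, 2 lung control and 2 lung Vps34-deficient libraries. These are the numbers in the labels. The study's methods give the spleen numbers of control and Vps34-deficient samples the other way round, and the deletion was not checked in these libraries. Every genotype direction in spleen, every genotype average over tissues and every tissue difference within a genotype therefore rests on the spleen labels. Which controls were +/+ and which were +/fl is not given, and the labels do not say that libraries came from separate animals, so p-values measure only the spread between these libraries. Counts on chromosome Y were high in 5 libraries (56.9 to 67.6 CPM) and low in the other 5 (7.03 to 21.4 CPM), with both kinds in every group, so libraries of 1 group differed in the sex of the mice and part of their spread is between animals. Cre was expressed from Foxp3, so deletion and the sort both follow this gene. In such bulk libraries, fewer cells with an open site and less opening per cell cannot be told apart.

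Library totals ran from 9405823 to 22439699 counts, and both lowest totals were lung libraries. The lung controls differed from each other more than any other pair of replicates (chi-square per degree of freedom 2.98 on halved counts, against 1.40 to 1.99 in the other groups). Most results at the 7 genes are therefore given with the effect of leaving out a library. Those at other genes and at marker peaks are not. Promoter peaks were present at all 6 Treg markers, with summed levels (the highest promoter peak of each gene) of 189.9 to 204 CPM in spleen controls, 178 to 213 in spleen Vps34-deficient libraries, 164 to 205 in lung controls and 156 to 184 in lung Vps34-deficient libraries. No promoter peak was present at Cd79a, Ms4a1, Csf1r, Lyz2, Sftpc, Tek, Ncr1 or Klrb1c, which mark other cells. Further markers of other cells had one, among them Pecam1 (21.7 to 26.6 CPM), Epcam (16.8 to 24.8), Pax5 (11.9 to 17.7) and Spi1 (8.93 to 16.5). Of the Treg markers, Cd4 was at 3.74 to 8.40 CPM and Cd3e at 11.9 to 20.7. The share of other cells was not measured.

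Peaks are named below by the distance of their centre from a RefSeq start of the gene, with a plus sign in the direction of transcription. Sequences are shown for peaks outside promoters on which the results turn (RefSeq GRCm38.p6, plus strand, the central 300 bases or the whole peak where it was shorter). Capitals mark matches, on either strand, to the letters of 6 motifs. They are TGANTCA for the AP-1 factors, TGTGGT for the RUNX factors, CTTTGA for TCF and LEF proteins, AGATAA for GATA proteins, CCGGAA for the ETS family and TGTTTAC for the forkhead family. The first 3 peaks were more open in lung in both genotypes.
Tet2 +61.5 kb, intron, chr3:133482749-133482961: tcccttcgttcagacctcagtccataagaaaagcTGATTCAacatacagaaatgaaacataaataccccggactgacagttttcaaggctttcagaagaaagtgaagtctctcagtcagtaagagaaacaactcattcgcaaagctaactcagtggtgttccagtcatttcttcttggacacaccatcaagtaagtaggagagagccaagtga
Dnmt3b +11.5 kb, intron, chr2:153660865-153661075: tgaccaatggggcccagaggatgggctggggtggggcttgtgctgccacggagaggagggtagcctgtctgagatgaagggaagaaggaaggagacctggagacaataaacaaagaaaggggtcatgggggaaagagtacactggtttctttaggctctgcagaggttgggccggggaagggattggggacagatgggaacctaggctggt
Tet3 +5.7 kb, intron, chr6:83435848-83436057: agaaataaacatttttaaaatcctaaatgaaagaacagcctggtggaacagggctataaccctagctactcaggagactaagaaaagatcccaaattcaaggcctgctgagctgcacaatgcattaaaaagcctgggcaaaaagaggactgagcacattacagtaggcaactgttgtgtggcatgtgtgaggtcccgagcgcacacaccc
Both of the following peaks of Dnmt3a were more open in spleen.
Dnmt3a +28.8 kb, intron, chr12:3835637-3835936: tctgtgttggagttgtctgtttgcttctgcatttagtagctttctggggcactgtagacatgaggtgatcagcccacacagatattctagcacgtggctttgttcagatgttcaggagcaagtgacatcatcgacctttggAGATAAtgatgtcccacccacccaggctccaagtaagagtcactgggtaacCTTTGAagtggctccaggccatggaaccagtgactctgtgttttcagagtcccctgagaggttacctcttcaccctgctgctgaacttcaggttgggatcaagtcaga
Dnmt3a +49.1 kb, intron, chr12:3855909-3856208: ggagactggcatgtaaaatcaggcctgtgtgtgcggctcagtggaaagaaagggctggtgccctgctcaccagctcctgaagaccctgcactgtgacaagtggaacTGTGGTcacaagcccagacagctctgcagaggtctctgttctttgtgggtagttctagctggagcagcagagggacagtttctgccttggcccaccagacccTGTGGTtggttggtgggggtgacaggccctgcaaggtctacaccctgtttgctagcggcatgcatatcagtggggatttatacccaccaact
The last 2 peaks were called for the genotype, averaged over both tissues at Dnmt1 and in lung at Dnmt3a.
Dnmt1 -8.7 kb, upstream, chr9:20961500-20961799: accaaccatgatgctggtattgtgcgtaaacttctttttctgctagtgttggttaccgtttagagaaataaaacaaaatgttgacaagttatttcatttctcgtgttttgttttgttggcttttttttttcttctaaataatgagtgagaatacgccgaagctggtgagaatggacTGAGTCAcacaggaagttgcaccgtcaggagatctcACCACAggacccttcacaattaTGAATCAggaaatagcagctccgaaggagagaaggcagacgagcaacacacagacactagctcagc
Dnmt3a +83.5 kb, intron, chr12:3890346-3890567: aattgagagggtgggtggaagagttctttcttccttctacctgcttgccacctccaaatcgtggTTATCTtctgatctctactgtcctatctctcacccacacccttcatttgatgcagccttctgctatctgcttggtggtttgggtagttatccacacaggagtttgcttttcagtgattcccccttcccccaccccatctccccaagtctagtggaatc

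An AP-1 match stood once in Tet2 +61.5 kb and at 2 places in Dnmt1 -8.7 kb, while 13.0% of 300-base windows at all peaks held at least 1. The RUNX match stood at 2 places in Dnmt3a +49.1 kb and once in Dnmt1 -8.7 kb, against 26.5% of windows. A TCF/LEF match stood in Dnmt3a +28.8 kb (21.6% of windows), and GATA matches in Dnmt3a +28.8 kb and Dnmt3a +83.5 kb (15.1%). The printed bases of Dnmt3b +11.5 kb and Tet3 +5.7 kb, both shorter than a 300-base window, held none of the 6 motifs, and the full window around Tet3 +5.7 kb held a RUNX match. Over all 75 member windows, 12 held AP-1, 19 RUNX, 21 TCF/LEF, 9 GATA, 6 ETS and 1 forkhead, where shares of all windows were 13.0%, 26.5%, 21.6%, 15.1%, 8.18% and 4.34%. The median GC content of the 75 peaks was 52.0%, against 48.6% at all peaks. A match is a description of the letters and not a measured binding site.

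The 300 bases around the RefSeq starts that held a peak (250 before to 50 after the start) had 12 to 57 CpG, where the 7 peaks shown above had 1 to 8 and the median of 32851 RefSeq promoters was 7. The highest count was at Tet2, and 99.9% of RefSeq promoters had at most as many. Both first starts of Dnmt3a had 46 and 47, that of Dnmt3b had 30, that of Tet3 22 and that of Tet1 17. A more distal RefSeq start of Dnmt1 held 2 CpG and no peak. The 250 bases before these starts are shown on the gene's strand, with CpG in capitals.
Tet2 start, chr3:133544391-133544640, minus strand: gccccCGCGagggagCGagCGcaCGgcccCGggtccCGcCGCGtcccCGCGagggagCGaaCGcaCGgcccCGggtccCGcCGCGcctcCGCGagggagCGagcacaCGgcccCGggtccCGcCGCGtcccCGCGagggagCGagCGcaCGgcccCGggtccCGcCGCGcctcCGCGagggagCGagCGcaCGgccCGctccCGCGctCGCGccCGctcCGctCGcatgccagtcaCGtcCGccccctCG
Distal Dnmt1 start, chr9:20959889-20960138, minus strand: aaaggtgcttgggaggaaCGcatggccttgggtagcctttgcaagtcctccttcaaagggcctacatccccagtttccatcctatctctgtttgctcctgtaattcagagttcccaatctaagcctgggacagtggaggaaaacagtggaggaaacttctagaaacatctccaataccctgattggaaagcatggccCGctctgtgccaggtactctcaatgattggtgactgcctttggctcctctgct

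Per length, the Tet2 promoter was the most open of the promoter peaks of the 7 genes, with a mean over the 10 libraries of 97.3 CPM per kb, above 91.9% of all promoter peaks. The Uhrf1 promoter at its highest peak had 66.4 CPM per kb, the downstream Tet3 promoter 64.4, the first Dnmt3a promoter 40.6, the upstream Tet3 promoter 31.8, the Dnmt1 promoter 30.0 and the Dnmt3b promoter 15.6. The internal Dnmt3a promoter, from which a shorter transcript starts, had 15.1 CPM per kb, and a peak at another Dnmt3a start, at +54.7 kb, had 4.42. The smaller peaks at the starts of Dnmt3a (+0.8 kb) and of Tet3 (+1.1 and -1.1 kb) lay between 8.72 and 23.6 CPM, 4.87 and 7.90 CPM, and 4.66 and 6.89 CPM. The Tet1 promoter was low, with 5.30 CPM per kb, above only 8.90% of promoter peaks. In every library the Tet1 promoter lay between 5.20 and 8.89 CPM and the Tet2 promoter between 89.0 and 119 CPM. The ranges of these 2 promoters did not overlap, per length or in CPM.

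By edgeR, 0 of the 14 promoter peaks were called in any of the 7 comparisons (quasi-likelihood test, with a peak called where the Benjamini-Hochberg adjusted p was under 0.05 and the log2 fold change exceeded 0.5 in size). At an unadjusted p below 0.05 there were 0 in the genotype comparison of spleen and 1 in that of lung, 3 in the tissue comparison of controls and 1 in that of Vps34-deficient Tregs, 1 in the interaction, 1 for the average genotype effect and 4 for the average tissue effect. Of all promoter peaks, 6.60%, 15.9%, 18.2%, 22.3%, 5.04%, 15.3% and 29.7% stood at this unadjusted p, in the same order. The promoter with the smallest unadjusted p for the genotype was that of Tet3 at 0.0 kb, at 35.1 and 29.5 CPM in lung controls and 21.6 and 27.0 in lung Vps34-deficient libraries, against 32.9 and 33.2 in spleen controls and 33.2, 32.3, 35.9 and 30.3 in spleen Vps34-deficient libraries (genotype difference in lung -0.43 ± 0.14, adjusted p = 0.0749 by edgeR). Of all 16980 promoter peaks tested, 0.0942% were called higher and 0.294% lower for the genotype in spleen, 0.477% and 1.89% in lung, and 3.29% and 1.54% for the tissue in controls. These shares were 2.77% and 2.82% for the tissue in Vps34-deficient Tregs, 0.0% and 0.0% for the interaction, 0.789% and 1.37% for the average genotype effect, and 4.66% and 2.60% for the average tissue effect. DESeq2 called 1 promoter peak, in the tissue comparison of controls, and 0 in the other 6 comparisons.

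That promoter peak was Dnmt3a +0.8 kb (chr12:3807317-3808192), whose call depended on the settings. It was at 18.8 and 19.3 CPM in spleen controls, 20.2, 16.3, 23.6 and 17.4 in spleen Vps34-deficient, 8.72 and 14.8 in lung controls and 16.6 and 13.5 in lung Vps34-deficient libraries. Both lung controls were below every spleen library, and lung control 1 was the lowest of all. The tissue difference in controls was -0.59 ± 0.22 (adjusted p = 0.0635 by edgeR). It passed as lower in lung with 7 other settings: library size and median-of-ratios scaling, DESeq2 (-0.64, 0.0392), no filter, a mean count of at least 20, halved counts and a chromosome Y term. It also passed without lung control 2 (-1.14, adjusted p = 0.00218 by edgeR), spleen Vps34-deficient 1, 2 or 3, or either lung Vps34-deficient library (-0.65 to -0.68). The average difference of -0.43 ± 0.14 (0.0252) was under the fold limit, which it passed without lung control 2 (-0.56), spleen Vps34-deficient 2 (-0.54) or lung Vps34-deficient 1 (-0.55).

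At the Tet2 promoter the average tissue difference was -0.16 ± 0.06 on the log2 scale (SE, adjusted p = 0.0301 by edgeR), below the fold limit. Its CPM was 116 and 113 in spleen controls, 119, 114, 115 and 109 in spleen Vps34-deficient libraries, 89.0 and 99.7 in lung controls and 100.4 and 101 in lung Vps34-deficient libraries. All 4 lung libraries were below all 6 spleen libraries at this promoter, and with 1 library left out the adjusted p ran from 0.00475 to 0.169, the latter without lung control 1.

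Accessibility was then summed over the peaks of each gene. By edgeR on all libraries, Dnmt3a was the one member called in any comparison, and it was less open in lung than in spleen, in each genotype and on average. The sums of its 19 peaks were 264 and 269 CPM in spleen controls, 294, 289.5, 317 and 293 in spleen Vps34-deficient, 198 and 231 in lung controls and 246 and 217 in lung Vps34-deficient libraries. Every lung library lay below every spleen library. The log2 difference was -0.26 ± 0.08 in controls (SE, adjusted p = 0.0309 by edgeR, adjusted over 17619 genes), -0.29 ± 0.07 in Vps34-deficient Tregs (adjusted p = 0.00652) and -0.28 ± 0.05 on average (adjusted p = 0.000400). Of all genes tested, 5.19% were called lower in lung in controls, 6.95% in Vps34-deficient Tregs and 14.4% on average, and 9.29%, 11.1% and 16.6% higher. With 1 library left out, the average difference stayed between -0.30 and -0.23, with adjusted p of at most 0.00419. The difference within controls was lost without spleen control 1 (-0.27, adjusted p = 0.136 by edgeR), without spleen control 2 (-0.25, 0.131) and without lung control 1 (-0.17, 0.179). It was lost too with the control libraries fitted alone (-0.26, 0.106). That within Vps34-deficient Tregs was lost without lung Vps34-deficient 2 (-0.20, adjusted p = 0.148). With promoter peaks alone neither passed, at -0.20 in controls (adjusted p = 0.188 by edgeR) and -0.16 in Vps34-deficient Tregs (0.229).

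**Figure D1:**
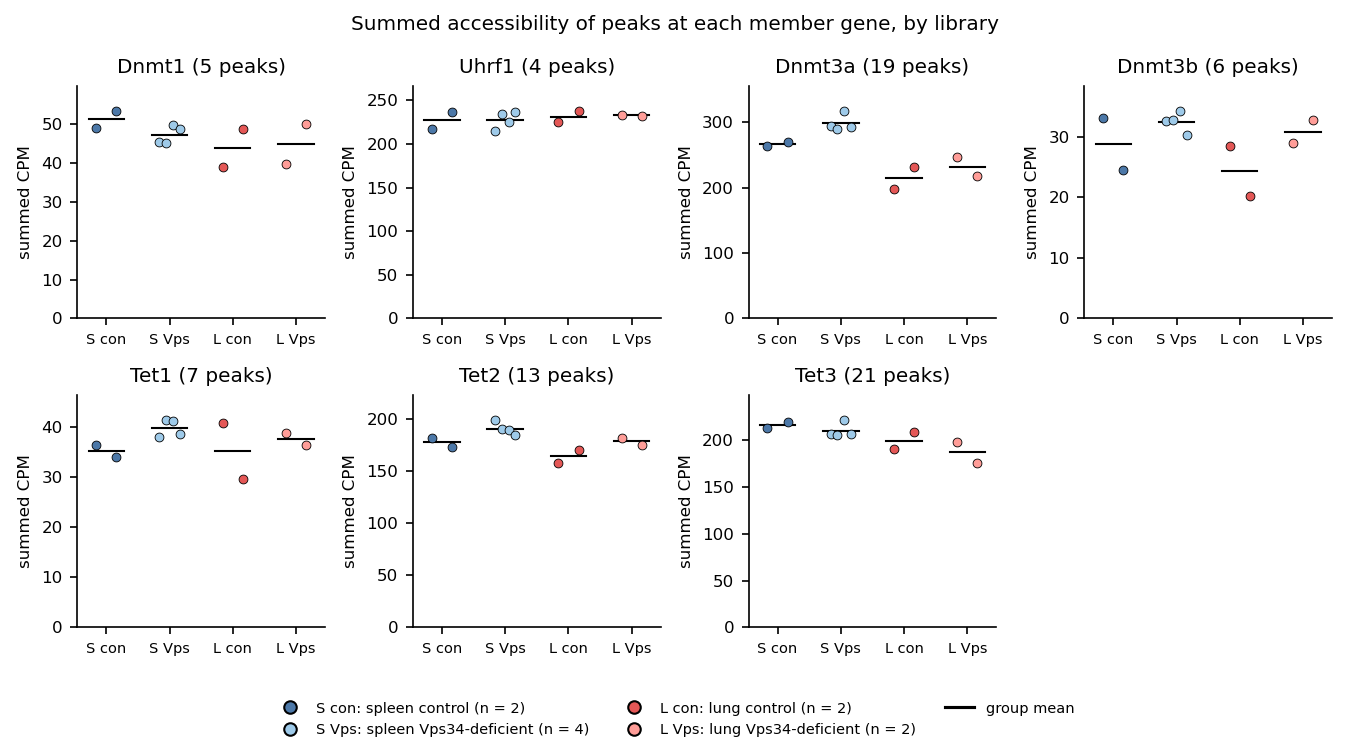
Summed CPM (y axis, from 0) of the peaks of each of the 7 genes in the 10 libraries, by tissue and genotype (x axis). Points are libraries and lines are group means. The 4 lung libraries of Dnmt3a lie below its 6 spleen libraries, and the groups of the other genes overlap or lie close together.

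The other 6 genes were not called in any comparison, and in the tissue comparisons no further member passed at an unadjusted p below 0.05, where 29.6% of all genes did in controls, 32.3% in Vps34-deficient Tregs and 42.0% on average. Tet2, the Tet gene often mutated in T cell lymphoma, had sums of 182 and 173 CPM in spleen controls, 199.5, 190.5, 189 and 185 in spleen Vps34-deficient, 159 and 171 in lung controls and 182 and 175 in lung Vps34-deficient libraries. Within each tissue, both controls lay below all Vps34-deficient libraries. The average genotype difference of Tet2 was 0.13 ± 0.04 (adjusted p = 0.0806 by edgeR) and that of Dnmt3a 0.16 ± 0.05 (adjusted p = 0.0556). Both stood close to the threshold, and whether they passed depended on the fit. DESeq2 called both (0.14, adjusted p = 0.0232, and 0.17, adjusted p = 0.0127). So did edgeR with a window of 2 kb (0.0488 for Tet2 and 0.0459 for Dnmt3a) and with the peaks outside promoters alone, chosen after seeing the data, where Tet2 was at 0.24 (0.0189) and Dnmt3a at 0.19 (0.0329). Dnmt3a alone also passed by edgeR with median-of-ratios scaling (0.0435), a mean count of at least 20 (0.0463), halved counts (0.0450) and a chromosome Y term (0.0313), without lung control 2 (0.20, 0.0178) and without lung Vps34-deficient 2 (0.20, 0.0369). Over the alternatives the adjusted p of Tet2 ran from 0.0189 to 0.528 and that of Dnmt3a from 0.0127 to 0.440. By edgeR, 0 member genes were called for the genotype in spleen (1 at an unadjusted p below 0.05), in lung (2), as an interaction (0) and on average (3). DESeq2 called 0, 0, 0 and 2. At this unadjusted p stood 10.1%, 20.4%, 6.03% and 22.0% of all genes. Of all genes, 0.0397% were higher and 0.182% lower in Vps34-deficient Tregs of spleen, 1.24% and 2.26% in lung, 3.54% and 2.77% on average, and 0.0% had an interaction.

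Uhrf1 was the steadiest sum, between 215 and 238 CPM, with an average genotype difference of 0.03 ± 0.04 and an average tissue difference of 0.09 ± 0.04. Of this sum, 74.3% came from 1 peak 2.0 kb beyond the gene that is the promoter of Kdm4b, a histone demethylase gene. Its own promoters were between 33.0 and 43.1 CPM and between 9.0 and 12.8 CPM in all libraries. Dnmt1 had 39.1 to 53.4 CPM in all, with an average genotype difference of -0.04 ± 0.08, and its promoter 19.5 to 29.9 CPM. Of its 5 peaks, 1 is the promoter of Eif3g, a translation initiation factor gene. Tet3 had 176 to 221 CPM and average differences of -0.04 ± 0.05 for genotype and -0.08 ± 0.05 for tissue.

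The lowest sums were those of Tet1, with 29.5 to 41.3 CPM, and Dnmt3b, with 20.2 to 34.3. At Tet1, 41.2% came from an intronic peak at +21.7 kb (chr10:62865123-62866170) and 18.9% from the promoter. The average genotype difference was 0.17 ± 0.09 for Tet1 and 0.26 ± 0.11 for Dnmt3b (adjusted p = 0.266 and 0.168 by edgeR). The first passed without lung control 1 (0.26, adjusted p = 0.0422), and the second was 0.40 without spleen control 1 (0.0645). In lung the genotype difference was 0.14 for Tet1 and 0.38 for Dnmt3b (adjusted p = 0.599 and 0.232), and both values rested on the lung controls. Without lung control 1 they were 0.41 and 0.67 (0.0403 and 0.0166 by edgeR). Without lung control 2 that of Tet1 turned to -0.10 (0.813) and that of Dnmt3b was 0.12 (0.837). The lung controls of Dnmt3b were 28.5 and 20.2 CPM and its lung Vps34-deficient libraries 28.9 and 32.8. At the members with no called peak, the smallest genotype p stood at Uhrf1 +26.3 kb (chr17:56330471-56330674, -0.37 ± 0.18 in spleen, adjusted p = 0.332 by edgeR, 7.37 to 11.5 CPM) and Tet1 +3.2 kb (chr10:62883869-62884423, 0.58 ± 0.31, 0.405, 2.54 to 5.52 CPM).

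The tissue was then compared peak by peak. In controls, 4 member peaks were more open in lung and 5 less open, of 75, against 11.8% and 3.53% of all 97109 peaks tested. In Vps34-deficient Tregs these were 3 and 2, against 12.5% and 4.72%, and averaged over genotypes 5 and 6, against 18.4% and 6.51%. The median log2 difference of the 75 peaks was -0.14 on average, where that of all peaks was -0.01. Tet2 +61.5 kb, Dnmt3b +11.5 kb and Tet3 +5.7 kb were called higher in lung, and Dnmt3a +28.8 kb lower, in controls and in Vps34-deficient Tregs alike. Both comparisons hold different libraries, but the fit used a shared estimate of the spread over all groups, so they are not independent. Promoter peaks of some markers of other cells moved with the tissue. Cdh5, an endothelial cadherin gene, was called higher in lung (0.18 to 1.07 CPM in spleen and 1.13 to 3.39 in lung, average log2 difference 2.04, adjusted p = 0.00136 by edgeR). Nkx2-1, a lung epithelial factor, was called higher too (0.36 to 1.11 CPM against 1.30 to 2.12, 1.26, adjusted p = 0.0157). Other markers of these lists were not called, with average differences of 0.0006 for endothelial Pecam1 and -0.22 for Kdr (adjusted p = 0.998 and 0.502), and of -0.18 and -0.33 for epithelial Epcam and Cdh1 (0.223 and 0.106). Tek and Sftpc had no promoter peak. The part of such cells in the tissue calls was not tested.

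Tet2 +61.5 kb lies in an intron toward the end of the gene. Its CPM was 3.30 and 4.55 in spleen controls, 6.95, 7.71, 4.96 and 8.04 in spleen Vps34-deficient, 15.5 and 7.20 in lung controls and 16.9 and 17.1 in lung Vps34-deficient libraries. All but 1 lung library stood above every spleen library, and lung control 2 lay within the range of the spleen Vps34-deficient group. The log2 difference between lung and spleen was 1.60 ± 0.31 in controls (adjusted p = 0.000952 by edgeR), 1.36 ± 0.24 in Vps34-deficient Tregs (adjusted p = 0.000339) and 1.45 ± 0.19 on average (adjusted p = 2.07e-06). Within controls the call was lost without spleen control 1 (1.27, adjusted p = 0.0564) and without lung control 1 (0.90, 0.0636), and the average was called in every alternative run.

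Dnmt3b +11.5 kb held few counts, from 4 to 34 in a library. Its CPM was 0.178 and 0.276 in spleen controls, 0.974, 1.10, 0.722 and 1.0 in spleen Vps34-deficient, 2.13 and 0.706 in lung controls and 2.60 and 3.60 in lung Vps34-deficient libraries. It was lowest in spleen controls and highest in lung Vps34-deficient Tregs, and lung control 2 was below the spleen Vps34-deficient group. The average tissue difference was 2.03 ± 0.39 (adjusted p = 0.000268 by edgeR), and without 1 library it ran from 1.77 to 2.28. Between the controls it was 2.66 ± 0.69 (adjusted p = 0.0104), which was lost without spleen control 1 (2.24, 0.143) or lung control 1 (1.65, 0.216) and with the control libraries fitted alone (2.64, 0.0523). In Vps34-deficient Tregs it was 1.75 ± 0.46 (adjusted p = 0.00966) and was lost without lung Vps34-deficient 2 (1.57, 0.112).

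Tet3 had peaks that moved both ways. Tet3 +5.7 kb was at 0.535 and 1.10 CPM in spleen controls, 1.81, 1.59, 1.26 and 1.15 in spleen Vps34-deficient, 3.61 and 2.40 in lung controls and 4.55 and 4.66 in lung Vps34-deficient libraries. Every lung library was above every spleen library. Its average tissue difference was 1.81 ± 0.28 (adjusted p = 1.77e-05 by edgeR), and it was called in both genotypes (1.98 ± 0.46 and 1.71 ± 0.35, adjusted p = 0.00450 and 0.00131). In controls the call was lost without spleen control 1 (1.40, adjusted p = 0.136) or lung control 1 (1.60, 0.0567).

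The intronic Tet3 peaks at +59.7, +45.8 and +26.5 kb were lower in lung on average. Tet3 +59.7 kb (chr6:83381672-83382244) was at 4.01 and 3.72 CPM in spleen controls, 3.76, 2.32, 5.37 and 3.73 in spleen Vps34-deficient, 1.28 and 1.69 in lung controls and 1.62 and 2.12 in lung Vps34-deficient libraries. All lung values lay below all spleen values. The average difference was -1.11 ± 0.26 (adjusted p = 0.00204 by edgeR), and that in controls -1.28 ± 0.40 (0.0293) was lost without spleen control 1, spleen control 2 or lung control 1 (adjusted p = 0.117, 0.0670 and 0.112). Tet3 +45.8 kb (chr6:83395615-83396162) was sparse, with 0 to 62 counts a library. It was at 2.76 and 2.89 CPM in spleen controls and 1.25, 0.856, 1.17 and 2.58 in spleen Vps34-deficient libraries, against 0.425 and 0.423 in lung controls and 0.812 and 0 in lung Vps34-deficient libraries. All lung values were again below all spleen values, and the average difference was -2.13 ± 0.50 (adjusted p = 0.00187 by edgeR). In controls it was -2.64 ± 0.72 (0.0135), lost without spleen control 1 or 2 (0.0613 and 0.0510). In Vps34-deficient Tregs it was -1.64 (0.0992) and rested on the lung libraries, at -0.71 (0.565) without the one at 0 and -7.44 (0.0134) with it alone, a fitted value against 0 counts that gives no fold. Without lung Vps34-deficient 1 the average was -3.06 (0.000287). For Tet3 +26.5 kb (chr6:83415030-83415293) the average difference was -0.68 ± 0.20 (adjusted p = 0.0102 by edgeR, 0.0562 without lung Vps34-deficient 2). Its spleen range was 5.17 to 10.2 CPM and its lung range 3.60 to 5.85, which overlapped. Tet3 -12.0 kb (chr6:83453565-83453819), between both promoters, was higher in lung on average (0.62 ± 0.20, adjusted p = 0.0223 by edgeR), with 3.34 to 6.60 CPM in spleen and 5.32 to 7.88 in lung. It lost its call without spleen control 1, spleen Vps34-deficient 1 or 3, lung control 2 or lung Vps34-deficient 1 (adjusted p from 0.0529 to 0.0838).

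Tet2 +28.9 kb (chr3:133515097-133515864), another intronic peak, was higher in lung in controls (0.66 ± 0.20, adjusted p = 0.0274 by edgeR) and on average (0.52 ± 0.13, 0.00409). Its CPM was 13.3 and 13.2 in spleen controls, 16.8, 17.2, 15.3 and 13.9 in spleen Vps34-deficient, 17.2 and 22.4 in lung controls and 24.9 and 15.7 in lung Vps34-deficient libraries. The tissues overlapped, since lung Vps34-deficient 2 lay within the spleen range. The control call was lost in 6 of the 10 fits with 1 library left out, with adjusted p up to 0.326 without lung control 2 (0.36), and with the control libraries fitted alone (0.63, 0.0613). The average stayed at an adjusted p of at most 0.0484 but fell below the fold limit in several of these fits, with a lowest value of 0.39.

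Of the 19 peaks of Dnmt3a, 3 were called lower in lung on average and 0 higher. A negative average tissue difference was found at 17, and the median was -0.41, where the medians of the other 6 genes ran from -0.16 at Tet2 to 0.12 at Dnmt3b. Dnmt3a +28.8 kb was at 12.8 and 12.3 CPM in spleen controls, 14.3, 15.7, 19.1 and 16.4 in spleen Vps34-deficient, 7.44 and 7.06 in lung controls and 10.2 and 10.8 in lung Vps34-deficient libraries. Every lung library was below every spleen library, and within each tissue the controls were below the Vps34-deficient libraries. The tissue difference was -0.72 ± 0.20 in controls (adjusted p = 0.0158 by edgeR), -0.59 ± 0.17 in Vps34-deficient Tregs (0.0182) and -0.64 ± 0.13 on average (0.000540). The average was called in all alternatives run on all peaks, the control value was lost without spleen control 1 (0.0736) and the Vps34-deficient value without either lung Vps34-deficient library (0.162 and 0.107).

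Dnmt3a +49.1 kb showed the same order of groups, at 29.9 and 30.6 CPM in spleen controls, 34.6, 35.2, 34.7 and 33.4 in spleen Vps34-deficient, 16.4 and 20.3 in lung controls and 27.9 and 24.1 in lung Vps34-deficient libraries. No 2 of the 4 groups overlapped at this peak. It was lower in lung in controls (-0.63 ± 0.14, adjusted p = 0.00346 by edgeR, at most 0.0284 over the alternatives). In Vps34-deficient Tregs the difference of -0.35 ± 0.12 (0.0475) was under the fold limit, and so was the average of -0.47 ± 0.10 (0.000544). The average passed that limit without spleen Vps34-deficient 1, 2 or 3, lung control 2 or lung Vps34-deficient 1 (-0.56 to -0.52). Dnmt3a +18.7 kb (chr12:3825532-3825908) and +21.0 kb (chr12:3827894-3828118) were called lower on average (-0.80 ± 0.25 and -1.40 ± 0.40, adjusted p = 0.0184 and 0.00899 by edgeR), the first not without spleen control 2, lung control 2 or lung Vps34-deficient 2 (0.0806, 0.0528 and 0.0562). Within genotypes Dnmt3a +21.0 kb was not called, at -1.57 in controls and -1.28 in Vps34-deficient Tregs (adjusted p = 0.0855 and 0.105 by edgeR). The second was -3.25 without lung Vps34-deficient 1 (0.0222) and -0.50 without lung Vps34-deficient 2 (0.644), and the first passed without either (0.0435 and 0.0410). The average was -2.04 and -1.08 without these libraries (0.00225 and 0.0470). Dnmt3a +45.7 kb (chr12:3852597-3852851) was called lower in Vps34-deficient Tregs (-0.99 ± 0.30, 0.0236), not without either lung Vps34-deficient library (0.0950 and 0.187). The highest peak of the gene, intronic at +64.3 kb (chr12:3870801-3871692, 65.3 to 87.3 CPM), differed little between tissues (-0.09 ± 0.07, adjusted p = 0.389).

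**Figure D2:**
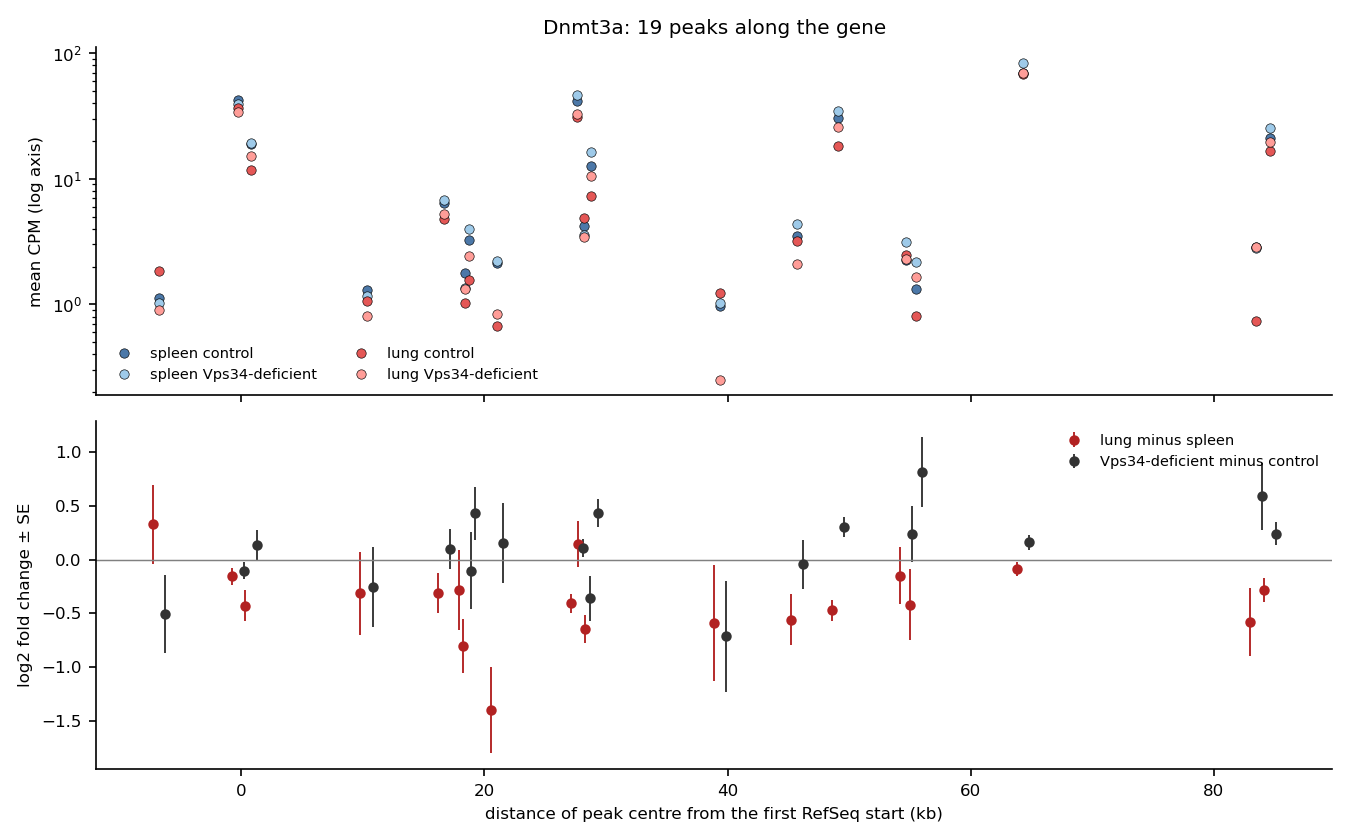
Dnmt3a peaks by distance from the first RefSeq start (x axis, kb). Top, mean CPM of each group on a log axis. Bottom, average tissue and genotype differences (log2 ± SE of the fit, 10 libraries), of which 17 of the 19 tissue differences lie below 0.

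Fewer member peaks were called for the loss of Vps34. In spleen, with the genotypes as labelled, 0 of the 75 were called by edgeR and 0 by DESeq2, with 12 at an unadjusted p below 0.05 (14.3% of all peaks) and a smallest adjusted p of 0.0665 (0.441% of all peaks were called higher and 1.02% lower). In lung, 1 was called higher and 1 lower (1.22% and 3.74% of all peaks), and averaged over tissues 2 higher and 1 lower (3.52% and 4.06%). The interaction of tissue and genotype gave 0 calls by edgeR and by DESeq2, with 6 at an unadjusted p below 0.05 (7.27% of all peaks), and 0.0% of all peaks were called. Groups did not overlap at 17 higher and 6 lower member peaks in spleen, where 15.0% and 11.1% of all peaks did so, and at 17 and 14 in lung, where 23.8% and 22.0% did so.

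**Figure D3:**
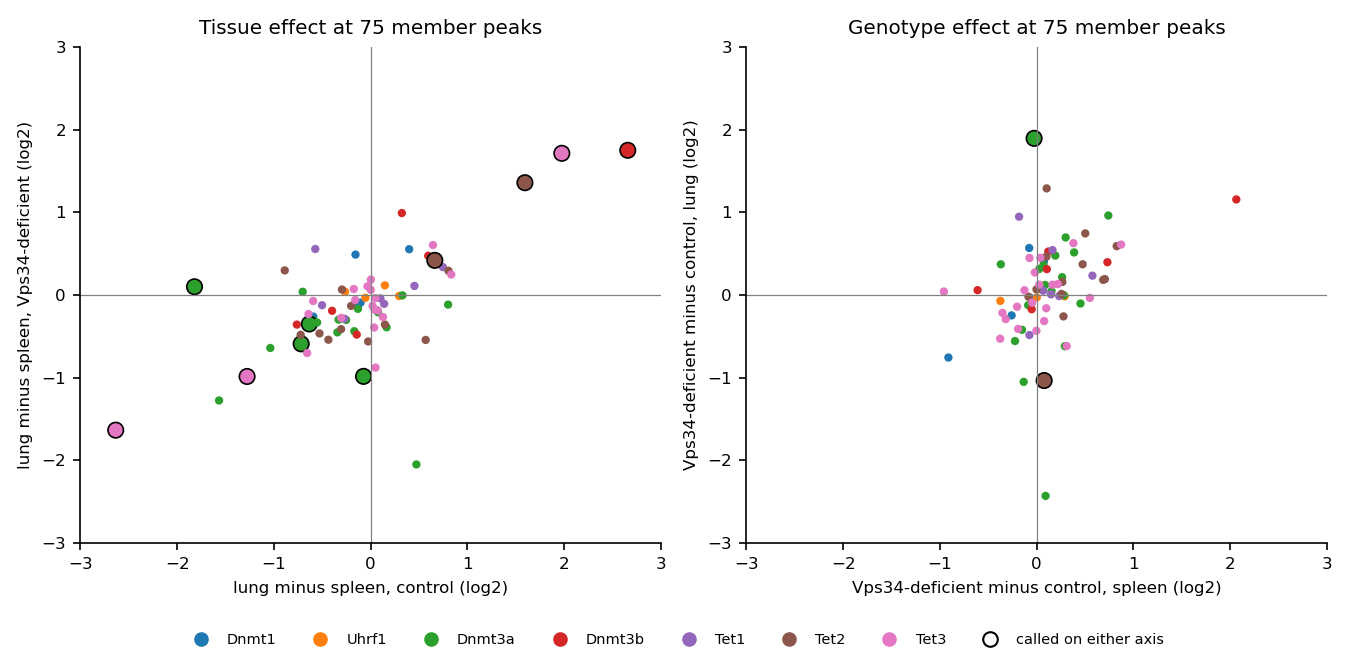
Tissue differences (left, controls on the x axis and Vps34-deficient Tregs on the y axis) and genotype differences (right, spleen against lung) of the 75 peaks, in log2. Large circled points passed the call rule on at least 1 axis: 10 peaks on the left and 2 on the right.

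Dnmt1 -8.7 kb, which also lies within 10 kb of S1pr2, was the one member peak called lower without Vps34 on average. It was at 5.53 and 6.89 CPM in spleen controls, 3.34, 2.94, 3.52 and 3.30 in spleen Vps34-deficient, 5.32 and 9.88 in lung controls and 4.06 and 5.29 in lung Vps34-deficient libraries. In each tissue both controls were above every Vps34-deficient library, by a narrow margin in lung. The average difference was -0.85 ± 0.19 (adjusted p = 0.00657 by edgeR) and stayed below 0.05 in all alternatives, with adjusted p of at most 0.0478. In spleen it was -0.91 ± 0.25 (adjusted p = 0.0665), which passed with the spleen libraries alone (-0.94, 0.0130). In lung it was -0.76 ± 0.30 (adjusted p = 0.155 by edgeR). That lung value rested on the controls, at -0.17 without lung control 2 (adjusted p = 0.888) and -1.01 without lung control 1 (0.0371). Beside the average genotype calls, Spi1, a myeloid and B cell factor, had a lower promoter peak without Vps34, at 13.1 and 16.5 CPM in spleen controls, 10.2 to 12.5 in spleen Vps34-deficient, 13.8 and 15.7 in lung controls and 8.93 and 10.6 in lung Vps34-deficient libraries. The groups did not overlap in either tissue, and its average difference of -0.48 (adjusted p = 0.0250 by edgeR) was just under the fold limit. Itgam, also on the myeloid list, had an average difference of -0.03 (adjusted p = 0.972), with 0.40 in spleen and -0.66 in lung, and the B cell factor gene Pax5 one of 0.11 (0.686). Csf1r and Lyz2 had no promoter peak. The part of such cells in the average genotype calls was not tested. The Dnmt1 promoter was not called (-0.05 ± 0.11, adjusted p = 0.837).

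Dnmt3b +11.5 kb and Tet2 +61.5 kb, both more open in lung, were the peaks called higher without Vps34 on average (1.54 ± 0.42 and 0.72 ± 0.20, adjusted p = 0.0211 and 0.0220 by edgeR). In the values above, both controls were below all 4 Vps34-deficient libraries in spleen and below both in lung. The Dnmt3b call was lost without spleen control 1, lung control 2 or lung Vps34-deficient 2 (0.0824, 0.0817 and 0.0607). The Tet2 call was lost without spleen control 1, spleen Vps34-deficient 2 or lung control 2 (0.0996, 0.0501 and 0.0793). Dnmt3a +28.8 kb and +49.1 kb had higher values without Vps34 that were under the fold limit (0.44 ± 0.13 and 0.30 ± 0.10, adjusted p = 0.0341 and 0.0438). In lung, Dnmt3a +49.1 kb had a genotype difference of 0.48 ± 0.15 (adjusted p = 0.0571 by edgeR), and it was called higher with 5 other settings, among them DESeq2 (0.51, 0.0352), median-of-ratios scaling and halved counts. It was also called without spleen control 2 (0.55, adjusted p = 0.0302 by edgeR), lung control 2 (0.69, 0.0317) or lung Vps34-deficient 2 (0.65, 0.0258). For the average genotype difference, with 1 library left out, the adjusted p of these peaks reached 0.107 (spleen Vps34-deficient 3) and 0.139 (lung Vps34-deficient 1). At Tet2, 11 of 13 peaks had a positive genotype difference in spleen, with a median of 0.27, where the median of all peaks was 0.05.

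In lung alone, Dnmt3a +83.5 kb was called higher and Tet2 -5.6 kb lower without Vps34. Dnmt3a +83.5 kb lies just ahead of the internal promoter and held 6 to 60 counts a library. It was at 0.638 and 0.847 CPM in lung controls and 3.57 and 2.12 in lung Vps34-deficient libraries, against 2.67 and 3.03 in spleen controls and 2.57, 2.94, 2.26 and 3.45 in spleen Vps34-deficient libraries. The lung controls stood below all other 8 libraries, which overlapped. The genotype difference in lung was 1.89 ± 0.46 (adjusted p = 0.0157 by edgeR), and the same low lung controls gave a tissue difference in controls of -1.82 ± 0.45 (adjusted p = 0.00704). The genotype call was lost without lung control 2 (0.0757) or lung Vps34-deficient 1 (0.149). The interaction was 1.92 ± 0.56 and was not called (adjusted p = 0.420).

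Tet2 -5.6 kb was at 7.23 and 8.75 CPM in lung controls and 4.87 and 2.96 in lung Vps34-deficient libraries, and at 6.77 and 4.55 in spleen controls and 6.12, 5.75, 5.78 and 6.46 in spleen Vps34-deficient libraries. Lung controls were the highest and the spleen groups overlapped. The difference in lung was -1.04 ± 0.29 (adjusted p = 0.0341 by edgeR), lost without spleen control 2, lung control 2 or lung Vps34-deficient 2 (0.0569, 0.247 and 0.288). Its interaction of -1.11 ± 0.37 was not called (adjusted p = 0.470). With the lung libraries alone, neither lung call held (0.113 for Dnmt3a +83.5 kb and 0.160 for Tet2 -5.6 kb).

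**Figure D4:**
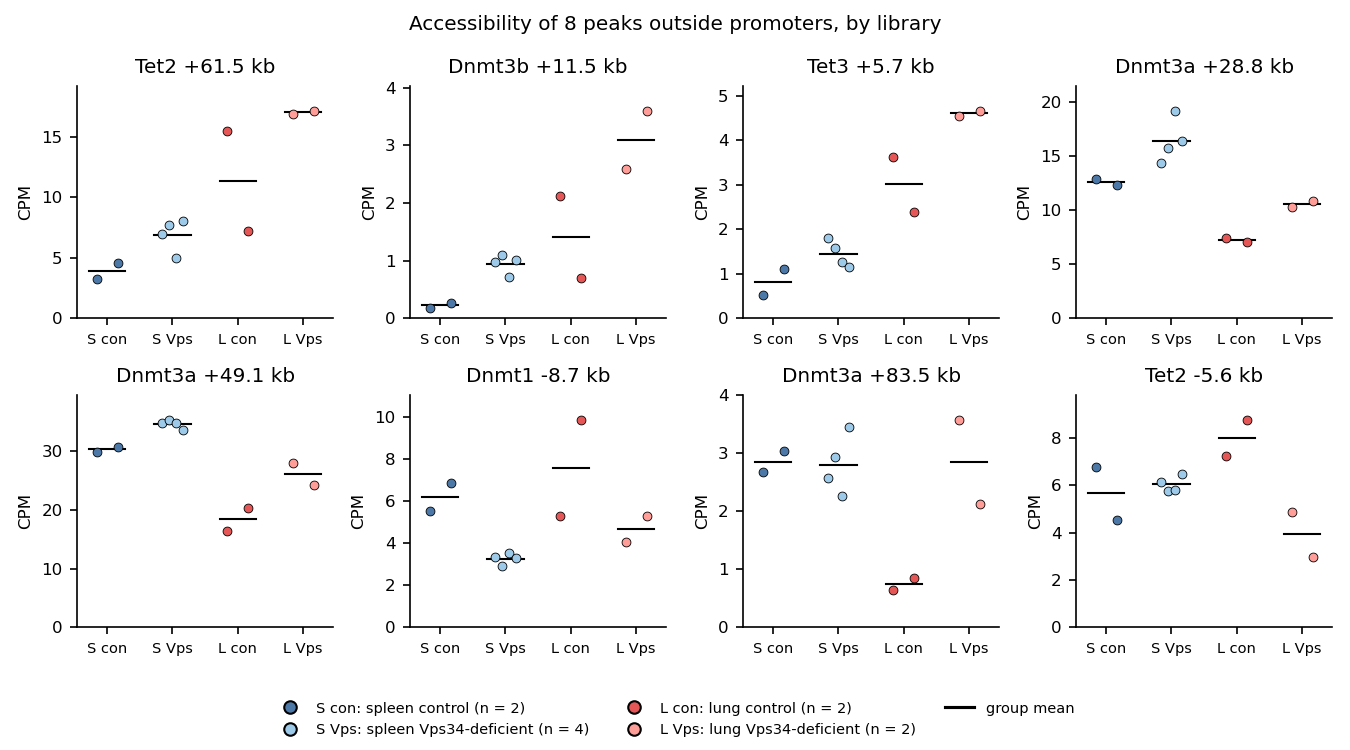
CPM (y axis, from 0) of 8 peaks in the 10 libraries by group, titled by gene and distance from the reference start. Points are libraries and lines are group means. Tet3 +5.7 kb lies higher in all lung libraries and Dnmt3a +28.8 kb and +49.1 kb lower, while lung controls are lowest at Dnmt3a +83.5 kb.

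Genes around this pathway were described by their summed peaks in the same way. No gene of the 7 lists was called for the genotype in spleen by edgeR. In lung, where 1.24% of all genes were called higher and 2.26% lower, 1 of 9 genes that read methylated DNA was called, Mbd2, a methyl-CpG binding protein, which was higher without Vps34 (132 and 121 CPM in lung controls and 149.6 and 153 in Vps34-deficient libraries, log2 difference 0.29 ± 0.07, adjusted p = 0.0345). Of 12 genes of the methyl donor cycle, Ahcy, which hydrolyses S-adenosylhomocysteine, was lower (58.3 and 67.9 CPM against 46.0 and 47.8, -0.40 ± 0.10, adjusted p = 0.0370). Of 15 genes of 2-oxoglutarate metabolism, Idh3a, a subunit of mitochondrial isocitrate dehydrogenase, was lower (82.7 and 85.0 CPM against 60.1 and 57.6, -0.48 ± 0.08, adjusted p = 0.00700) and was also lower on average (-0.29 ± 0.07, 0.0168). At each of these 3 genes the lung groups did not overlap. Among all peaks, 23.8% were higher and 22.0% lower in lung without overlap, and the share among genes was not counted. The effect of leaving out a library is not given for these genes. On average over tissues no other gene of the 7 lists was called. No gene was called in lung among 10 cofactors of methylation, 11 partners of demethylation, 6 genes with regions known to be demethylated in Tregs and 10 proliferation genes.

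Between tissues, averaged over genotypes, the readers had 1 gene higher and 2 lower in lung, the cofactors 1 and 3, the demethylation partners 1 and 2, the methyl donor cycle 1 and 3, 2-oxoglutarate metabolism 2 and 3, the genes demethylated in Tregs 1 and 1, and the proliferation genes 0 and 2. Against the 16.6% and 14.4% of all genes, these small lists had medians of -0.11 (cofactors) to 0.01 (demethylation partners) on the log2 scale, where the median of all genes was -0.03. Among the cofactors, Usp7, a deubiquitinase of Dnmt1, was lower in lung (107 to 117 CPM in spleen and 80.0 to 98.5 in lung, -0.29 ± 0.05, adjusted p = 0.000830 by edgeR), with no overlap. Mat2a, which makes S-adenosylmethionine, was lower (50.8 to 56.5 CPM in spleen and 40.6 to 45.8 in lung, -0.27 ± 0.06, adjusted p = 0.00420), also with no overlap. Idh2, mitochondrial isocitrate dehydrogenase, was lower (55.6 to 64.6 CPM in spleen and 41.0 to 50.3 in lung, -0.30 ± 0.07, adjusted p = 0.00357), and Sdhb, a subunit of succinate dehydrogenase, was higher (148 to 175 CPM in spleen and 196 to 248 in lung, 0.58 ± 0.06, adjusted p = 2.37e-06), both with no overlap. These 4 genes were chosen for their roles after their values were seen. Called members of the same lists went the other way. Mtr of the methyl donor cycle (0.32 ± 0.07, adjusted p = 0.00269 by edgeR) and Kdm2b of the cofactors (0.42 ± 0.10, 0.00613) were higher in lung, both with overlap.

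Proliferation genes were summed at their promoters because Dnmt1 and Uhrf1 are expressed in dividing cells. These sums were 638 to 659 CPM in spleen controls, 612 to 631 in spleen Vps34-deficient, 563 to 604 in lung controls and 578 to 593 in lung Vps34-deficient libraries. In these CPM, scaled by library total alone, all lung libraries were below all spleen libraries. Whether that order holds with the TMM scaling of the fits was not tested. Members of this list differed in direction, with negative average tissue differences at 6 of 10. The promoter peaks of Pcna (-0.18, adjusted p = 0.0121 by edgeR) and Mcm2 (-0.31, 0.00795) were lower in lung on average, that of Ccnb1 was higher (0.22, 0.0163), and Cdk1, E2f1 and Ccna2 had values of 0.04, 0.05 and 0.05. Top2a, Birc5, Mki67 and Mcm5 had values of -0.25, -0.24, -0.13 and -0.07, with adjusted p from 0.134 to 0.504. All were under the fold limit for peaks. Their part in the tissue difference of Dnmt3a was not tested.

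Promoter peaks were present at some markers of other cells, and the sums of 2 lists came mostly from Epcam (16.8 to 24.8 CPM) and Pecam1 (21.7 to 26.6 CPM). The sums over these lists were 13.1 to 17.7 CPM in spleen and 11.9 to 17.6 in lung for B cells (1 of 4 genes with a peak), 11.1 to 17.6 and 10.2 to 17.1 for myeloid cells (2 of 4), 28.3 to 35.5 and 25.1 to 30.9 for lung epithelium (3 of 4), 28.2 to 33.4 and 26.6 to 34.4 for endothelium (3 of 4), and 11.1 to 15.8 and 7.76 to 14.6 for CD8 and NK cells (2 of 4). The myeloid sum was 15.5 to 17.1 CPM in lung controls and 10.2 to 11.2 in lung Vps34-deficient libraries, and the CD8 and NK sum 7.76 to 10.6 and 13.2 to 14.6. The lung groups did not overlap in either list, and those of the other lists overlapped. Among all peaks, 23.8% were higher and 22.0% lower in lung without overlap. The myeloid sum came mostly from Spi1 (8.93 to 15.7 CPM in lung). That of CD8 and NK cells came from Cd8a and Cd8b1 alone, neither called in lung (adjusted p = 0.301 and 0.227 by edgeR). The part of these lists in the genotype calls was not tested.

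Over the 10 libraries, the genes whose summed accessibility was most like that of Dnmt3a were Cd6, a T cell surface receptor (Pearson r = 0.987 on the log2 scale), and Il24 (0.981). Ankmy2 was among those most like Tet2 (0.939). Those most like Tet3 were Fam227a (0.967) and Rbm14 (0.960), and those most like Tet1 were Wnt8a (0.949) and Cers3 (0.924). For Dnmt3b these were Arpp21 (0.969) and Frmd4a (0.960), for Dnmt1 Ppil2 (0.927) and Ist1 (0.916), and for Uhrf1 Bmf (0.952) and Ssu72 (0.927). These are among the highest of the correlations with all other protein-coding genes over libraries that share tissue and depth, and they describe these libraries.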

How the data were processed

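ATAC-seq of 10 libraries of sorted Tregs was analysed from 1 table of whole-number counts per peak that the authors deposited. Per the labels' processing notes, tools included cutadapt 1.9, Picard 1.65 and MACS2 2.1.0.20150603, and the build was GRCm38. The methods text names other trimming and an older build, and it gives the numbers of spleen libraries the other way round, so labels and columns were followed. With GRCm38 annotation, a peak covered 51.2% of gene starts and 2.44% to 2.94% of shifted ones. Between 91.5% and 96.5% of counts were even, as when both mates are counted, so counting error is understated and halved counts were an alternative.

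Peaks were fitted over all 10 libraries with edgeR 4.0.16 in R 4.3.3 (TMM scaling, low-count filter, 97109 peaks kept, quasi-likelihood test, Benjamini-Hochberg adjustment). A call needed an adjusted p under 0.05 and, for peaks, a log2 fold change over 0.5 in size. CPM were scaled by the column total alone, so they are not on the TMM scale of the fitted differences. Alternatives covered DESeq2 1.42.0, limma 3.58.1 offsets, scaling, filter, window, promoter peaks, a chromosome Y term and each library left out. Named peaks were own promoters, the highest peak of each gene, all called peaks and those with the smallest genotype p. The members and lists were chosen with earlier results of these data known. Pik3c3 was not analysed here, so the deletion is not checked. RefSeq sequences are of GRCm38.p6. Some items are not reported here.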

Additional observations from a re-analysis of the deposited data

Results flagged for a closer look

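In 42 sets of 4 spleen Vps34-deficient values, 1 library stood far from the other 3 in 4 sets, and it was replicate 3 each time. Chance alone flags about 1 in 20 such sets, and the sets share libraries. Replicate 3 was the highest in the summed accessibility of Dnmt3a (317 CPM), in that of Tet3 (221 CPM) and at the internal Dnmt3a promoter (29.9 CPM), and it was the lowest at the Dnmt3a peak +18.7 kb from the start (3.34 CPM). It had the second highest total count of the 10 libraries (22157725).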

How the results depend on the processing

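Of the values named, 0 reversed in a called direction under any alternative. Member peaks called for the genotype in spleen were 0, but 1 with halved counts, 2 with spleen libraries alone and 0 to 2 with 1 library left out. For the genotype in lung, 2 peaks became 1 with the replicate block or a window of 2 kb, 0 with lung libraries alone or promoter peaks alone, and 1 to 5 with 1 library left out, and 0 genes became 0 to 2. For the tissue in controls, 9 peaks became 0 with promoter peaks alone and 2 to 13 with 1 library left out, and the 1 gene, Dnmt3a, became 0 with the replicate block, control libraries alone, promoter peaks alone or a fold limit, and 0 to 1 with 1 library left out. For the tissue in Vps34-deficient Tregs, 5 peaks became 9 with library size scaling, 10 with no filter, 1 with the replicate block, 8 with no fold limit, 3 with a log2 limit of 1, 0 with promoter peaks alone and 3 to 8 with 1 library left out, and the 1 gene became 0 with the replicate block, promoter peaks alone or a fold limit, and 0 to 1 with 1 library left out. For the average genotype effect, 3 peaks became 6 with no fold limit, 1 with a log2 limit of 1, 0 with promoter peaks alone and 1 to 4 with 1 library left out. Here 0 genes became 1 with median-of-ratios scaling, a mean count of at least 20, halved counts or a chromosome Y term, 2 with DESeq2, a window of 2 kb or peaks outside promoters alone (chosen after seeing the data), and 0 to 1 with 1 library left out. For the average tissue effect, 11 peaks became 18 with no fold limit, 6 with a log2 limit of 1, 0 with promoter peaks alone and 10 to 15 with 1 library left out, and 1 gene became 0 with a fold limit. The cause was not tested. Same-numbered libraries did not deviate together (r from -0.098 to 0.063), so the numbers do not pair them; the replicate block lost 10 named calls and gained 1. The shallowest library held 9405823 counts, with a median of 32 per peak, and the smallest change detectable at this depth was not measured.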
